A study of Schizosaccharomyces pombe
Saccharomyces cerevisiae with 24 samples.

Results

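Genes of heat shock proteins and of Hsp70 and Hsp90 chaperones of budding yeast were followed through 24 RNA-seq libraries. The 10 genes were chosen by their systematic names in the deposited count tables and not by a rule on their values. Earlier results of these data were known when they were chosen. They are the disaggregase HSP104 (YLL026W), the small heat shock proteins HSP26 (YBR072W) and HSP42 (YDR171W), the small stress protein HSP12 (YFL014W), the Hsp90 genes HSP82 (YPL240C) and HSC82 (YMR186W), and the Hsp70 genes SSA1 (YAL005C), SSA2 (YLL024C), SSA3 (YBL075C) and SSA4 (YER103W). All 10 had a row among the 7127 genes of the tables, and all 10 passed the filter on low counts that left 6069 genes for testing.

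Chaperones bind unfolded or partly folded proteins. Hsp70 proteins bind short exposed stretches and release them in cycles of ATP hydrolysis, Hsp90 proteins act later on kinases, receptors and other clients, small heat shock proteins hold aggregating proteins, and Hsp104 pulls aggregates apart together with Hsp70. In yeast the heat shock factor Hsf1 and the general stress factors Msn2 and Msn4 drive many of these genes, and the constitutive copies (HSC82 and SSA2) are known for high levels in unstressed cells, while SSA3, SSA4, HSP26 and HSP12 are known as inducible.

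The cells were diploid W303 grown at 30 °C in rich medium (YEP) with 2% raffinose, to which galactose was added 20 or 60 min before the pulse or its mock. At each time 1 aliquot of the culture received 4-thiouracil (4sU), a uracil analog built into new RNA, for 6 min, and another did not. Biotin was coupled to the thiol group, streptavidin beads gave a labeled fraction and the flow-through an unlabeled fraction, and total RNA was also sequenced, so that 3 fractions, 2 times and 2 treatments gave 12 groups with 2 biological replicates each. S. pombe cells labeled with 4sU were mixed in at 1 part to 8 before RNA isolation. No group lacked galactose and none was heated, so the values compare late with early galactose and 4sU with no 4sU.

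The values given for single libraries are normalized counts, meaning the raw count over the S. pombe reads of that library in units of 2000000. They are comparable between libraries of one fraction, and levels are not compared between genes, since no gene lengths were used. Differences were tested on the raw counts with edgeR's quasi-likelihood test with S. pombe totals as library sizes, and are given as log2 fold changes ± SE with p-values adjusted by Benjamini-Hochberg over the 6069 genes. The SE was derived from the test, as the absolute log2 fold change over the square root of its F statistic. A gene was called at an adjusted p under 0.05. Multi-mapping reads were counted, so SSA1 with SSA2, SSA3 with SSA4, and HSP82 with HSC82 can share reads, and the values of these 6 genes are uncertain to that extent.

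Raw totals ran from 1.07 M to 38.4 M counts per library, with the lowest in labeled RNA without 4sU. The 10 genes together took 2.06 to 2.45% of the counts in labeled RNA with 4sU, 0.726 to 0.912% in total RNA with 4sU and 0.450 to 0.649% in total RNA without 4sU. In unlabeled RNA they took 0.275 to 0.491% with 4sU and 0.440 to 0.811% without. One library stood apart, replicate 1 of labeled RNA without 4sU at 20 min. Its normalized total was 3.26 M against 0.223 M to 0.329 M in the other 3 libraries of that kind, and it correlated with its replicate at r = 0.854 across genes, against 0.959 to 0.988 in the 11 other groups. The label of diploid cells was checked against 9 haploid-specific or mating genes, of which 6 had at most 10 normalized counts in all 8 total RNA libraries. The list summed to 57.0 to 152 normalized counts, and the highest, YOR212W, ran from 27.4 to 89.6. The galactose-induced genes YBR020W and YBR019C ran from 9160 to 18000 and from 6750 to 13900 in the same libraries.

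Between 20 and 60 min in galactose, total RNA of HSP12 and HSP26 was lower, and the other chaperone genes changed less or did not pass the test. HSP12 encodes a small membrane-associated protein of stressed and starved cells. Without 4sU its normalized counts in total RNA were 2234 and 1164 at 20 min and 346 and 327 at 60 min. With 4sU they were 1869 and 1292 at 20 min and 333 and 449 at 60 min. All 4 libraries at 20 min lay above all 4 at 60 min. In bulk RNA, fewer cells with a transcript and fewer transcripts per cell cannot be told apart. HSP12 fell by 2.34 ± 0.40 on the log2 scale without 4sU (5.05-fold lower, adjusted p = 7.03e-07) and by 2.01 ± 0.48 with 4sU (4.04-fold lower, adjusted p = 0.00386).

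HSP26 encodes a small heat shock protein that holds denatured proteins. Its normalized counts in total RNA without 4sU were 187 and 138 at 20 min and 41.3 and 49.7 at 60 min. With 4sU they were 69.9 and 80.4 at 20 min and 23.5 and 27.5 at 60 min. The times did not overlap in either treatment, and HSP26 was the lower with 4sU at both times. It fell by 1.83 ± 0.39 without 4sU (3.55-fold lower, adjusted p = 3.65e-04), while with 4sU the change of -1.57 ± 0.53 had an adjusted p of 0.191. With 4sU it was called lower under TMM scaling (-1.37, adjusted p = 0.00768) and with only the 4 libraries of total RNA with 4sU in the fit (-1.58, adjusted p = 0.0029). It was not called by DESeq2 or with the replicate number as a block. With each library left out its change with 4sU ran from -1.68 to -1.45.

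SSA4, an Hsp70 copy known to be induced by heat, had normalized counts of 336 and 168 at 20 min and 119 and 93.7 at 60 min in total RNA without 4sU. It fell by 1.24 ± 0.38 there (2.36-fold lower, adjusted p = 0.0452), a call that was lost with no filter on low counts (adjusted p = 0.0524). With 4sU it had 437 and 303 at 20 min and 328 and 300.2 at 60 min, which overlap, and the change was -0.24 ± 0.47 (adjusted p = 0.965). HSP82, the inducible Hsp90 gene, had 15550 and 8720 at 20 min and 5194 and 5041 at 60 min without 4sU. Its change of -1.25 ± 0.39 just missed the threshold (adjusted p = 0.0593). It passed with the replicate number as a block (adjusted p = 0.00677), under TMM scaling (adjusted p = 8.61e-04) and by DESeq2 (adjusted p = 0.00884). With each library left out its change ran from -1.60 to -0.77. Its counts with 4sU were 19130 and 14370 at 20 min and 9157 and 12040 at 60 min. The change with 4sU was -0.66 ± 0.44 and did not pass (adjusted p = 0.846).

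Of the 10 genes, 3 were thus called lower at 60 min in total RNA without 4sU, where 2.47% of all genes were called in either direction, and 1 in total RNA with 4sU, where 1.22% were called. The median log2 change of the 10 genes was -0.58 without 4sU against 0.05 over all genes, and -0.19 with 4sU against -0.21. The constitutive Hsp90 gene HSC82 changed by -0.14 without 4sU and -0.15 with 4sU, and neither value passed the test. SSA2 changed by 0.14 and 0.84, SSA1 by -0.36 and 0.10, HSP104 by -0.39 and 0.17, SSA3 by -0.36 and -0.72, and HSP42 by -0.76 and 0.84, in the same order. The call of HSP12 with 4sU rested on the libraries. Its adjusted p was 0.234 without replicate 1 at 20 min, 0.658 without replicate 1 at 60 min and 0.156 without replicate 2 at 60 min. Without 4sU it remained below 0.05 with each library left out, while SSA4 was called only when replicate 2 at 20 min was the library left out (adjusted p = 0.00105) and otherwise had adjusted p-values of 0.381 to 0.588. HSP26 without 4sU lost its call without replicate 1 at 60 min (adjusted p = 0.119). HSP42 without 4sU turned to 0.39 without replicate 1 at 20 min and was called lower without replicate 2 at 20 min (-1.46, adjusted p = 0.0286).

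**Figure D1:**
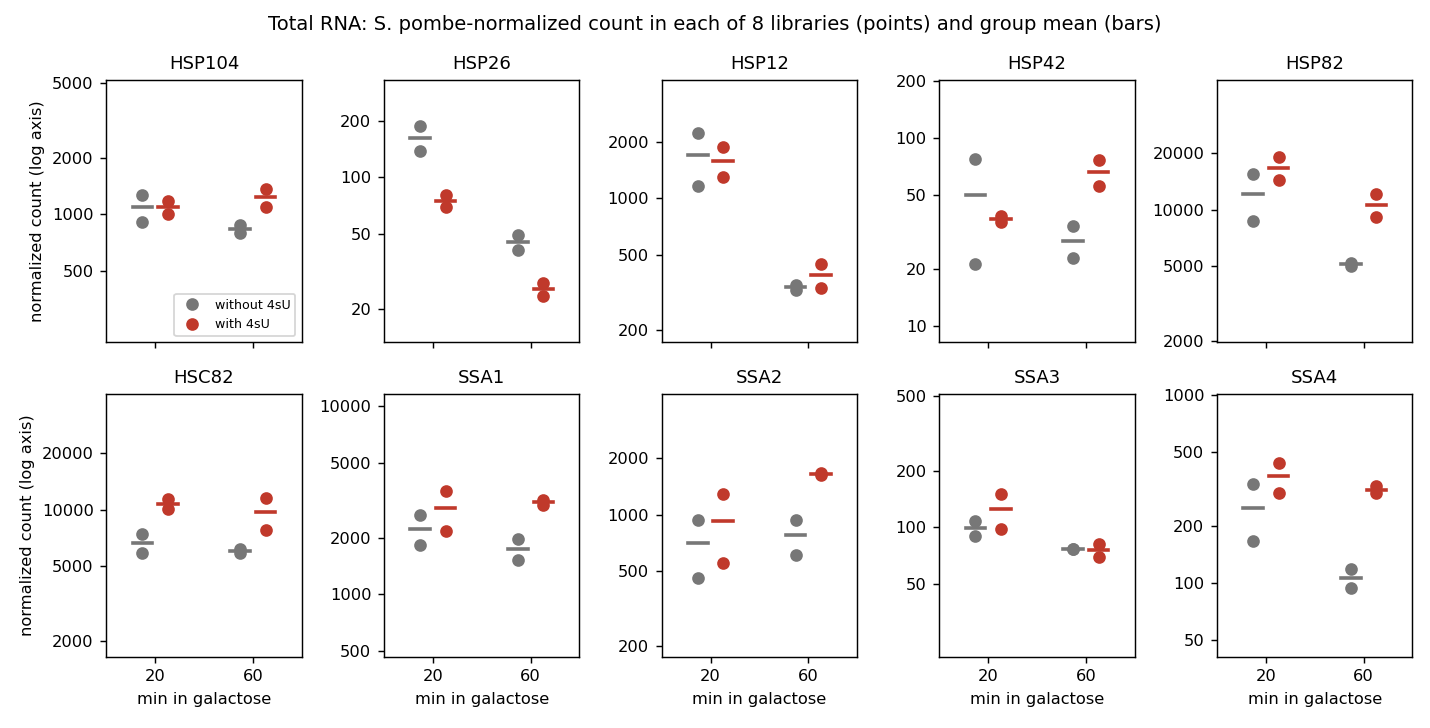
S. pombe-normalized counts (log axis, each panel on its own range of equal span) of the 10 genes in total RNA at 20 and 60 min in galactose, without 4sU (grey) and with 4sU (red). Points are the 8 libraries and bars the means of 2. HSP12 runs from 1164 to 2234 at 20 min and from 327 to 449 at 60 min, and SSA4 at 60 min lies at 93.7 and 119 without 4sU and at 300.2 and 328 with it.

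In the unlabeled fraction, which holds mostly RNA made before the pulse, all 10 genes had negative changes from 20 to 60 min and 5 of them were called lower, where 30.5% of all genes were called and the median change was -1.16. HSP12 had normalized counts of 1197 and 2815 at 20 min and 187 and 331 at 60 min in unlabeled RNA with 4sU, without overlap. It fell by 2.95 ± 0.50 (7.75-fold lower, adjusted p = 5.81e-07). HSP26 had 55.6 and 139 at 20 min and 9.82 and 19.4 at 60 min, and fell by 2.71 ± 0.56 (adjusted p = 1.21e-04). HSP82 had 1441 and 3541 at 20 min and 322 and 573 at 60 min, and fell by 2.48 ± 0.46 (adjusted p = 8.68e-06). For each of these genes the lowest library at 20 min lay above both libraries at 60 min. The same held for HSP104 and SSA4 and for SSA1, SSA2 and SSA3, which were not called, and not for HSP42 and HSC82. The share of all genes without overlap was not counted, so the lack of overlap does not set these genes apart.

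SSA4 fell by 2.09 ± 0.56 in unlabeled RNA (adjusted p = 0.00401), on low counts of 23.4 and 48.6 at 20 min and 2.89 and 13.4 at 60 min. HSP104 had 191 and 395 at 20 min and 53.2 and 115 at 60 min, and fell by 1.80 ± 0.46 (adjusted p = 0.00282). SSA1 (-1.02), SSA3 (-1.15), HSP42 (-0.87), HSC82 (-0.65) and SSA2 (-0.12) did not pass. SSA2 had normalized counts of 445 and 437 at 20 min and 400 and 414 at 60 min in these libraries with 4sU.

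Relative to the median over all genes, 5 of the 10 genes lay below and 5 above. With only the 4 unlabeled libraries with 4sU in the fit, 2 genes were called, HSP12 (adjusted p = 0.00974) and HSP82 (adjusted p = 0.0485). Without replicate 1 at 20 min 8 genes were called, without replicate 2 at 20 min 3, and without replicate 1 at 60 min 2. Unlabeled RNA without 4sU was not part of this test, and HSP12 had 1978 and 2681 normalized counts at 20 min and 281 and 537 at 60 min there.

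Labeled RNA holds the RNA made during the pulse and the background of the pull-down. None of the 10 genes was called there between 20 and 60 min by edgeR or by DESeq2, and none had an unadjusted p under 0.05 by edgeR. Of all genes 1.35% were called. HSP12 had normalized counts of 1029 and 1095 at 20 min and 1290 and 1996 at 60 min, a change of 0.63 ± 0.47 (adjusted p = 0.706). HSP42 had 2498 and 2039 at 20 min and 2425 and 3982 at 60 min, a change of 0.50 ± 0.47. The other 8 genes had changes of -0.80 (SSA3) to -0.05 (HSP104), around the median of -0.43 over all genes. HSP12 was called higher when the libraries were scaled by TMM, which sets the bulk of S. cerevisiae genes equal (1.06, adjusted p = 0.0049). Its labeled counts without 4sU were 97.2% and 15.8% of those with 4sU at 20 min, and 3.40% and 1.33% at 60 min. The part of this background in the change was not tested.

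**Figure D2:**
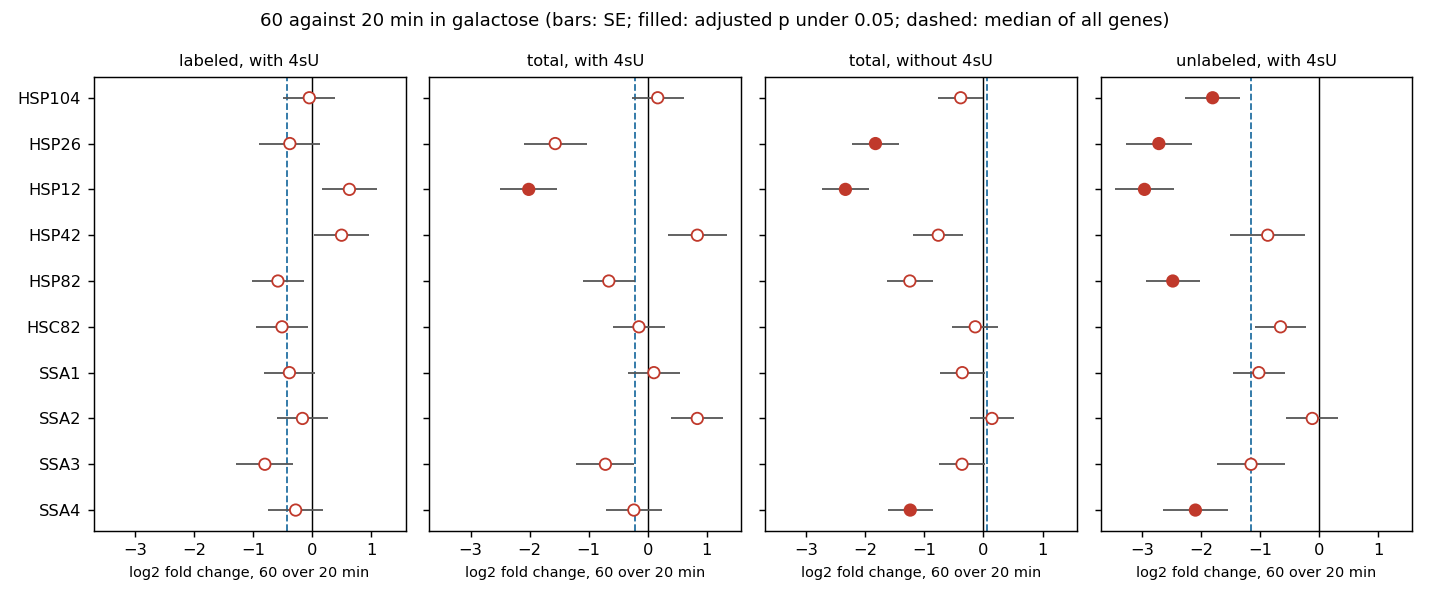
Log2 fold change from 20 to 60 min for each gene in 4 kinds of RNA (x axis, log2 scale); bars are SE, filled points have an adjusted p under 0.05, and the dashed line is the median over all 6069 genes. HSP12 lies at 0.63 in labeled RNA and at -2.01, -2.34 and -2.95 in total RNA with 4sU, total RNA without 4sU and unlabeled RNA.

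The ratio of labeled to total RNA with 4sU compares, within each gene, the RNA pulled down after 6 min of 4sU with all RNA. S. pombe reads give no common scale between the fractions, because the labeled S. pombe RNA is itself enriched by the pull-down, so the ratio is read against the median gene and tested with TMM scaling. By that measure the 10 genes spread over most of the range of the transcriptome. HSP42 lay at the 99.0th and HSP12 at the 1.29th percentile of the 6069 genes. The ratio was not corrected for transcript length or uracil content, so its ranking of genes is uncertain to that extent. The test called 60.8% of all genes and 8 of these 10, of which 4 were higher and 4 lower in labeled than in total RNA relative to the median gene, while on the S. pombe scale, where the median gene lay at 3.14, all 10 were higher.

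The 4 higher genes were HSP42, SSA2, SSA1 and HSP104. HSP42, a small heat shock protein that sorts misfolded proteins into aggregates, had ratios of normalized counts of 64.9 and 56.8 at 20 min and 31.7 and 71.6 at 60 min, where the median gene had 9.32, 9.83, 7.01 and 8.91 in the same libraries. Its log2 difference was 2.63 ± 0.23 (adjusted p = 8.96e-07). SSA2 had ratios of 49.1 and 83.6 at 20 min and 21.2 and 38.1 at 60 min, and a difference of 2.31 ± 0.22 (adjusted p = 1.37e-06). SSA1 had ratios of 25.0 and 31.9, then 15.5 and 23.6, and a difference of 1.45 ± 0.13 (adjusted p = 7.73e-07). HSP104 had ratios of 16.2 and 16.9, then 11.9 and 16.0, and a difference of 0.83 ± 0.13 (adjusted p = 1.33e-04). All 16 of these ratios lay above that of the median gene in the same replicate. The 4 genes were picked by the test on these same libraries, so this is a description and no separate support.

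The 4 lower genes were HSP12, HSP26, HSP82 and HSC82. HSP12 had a difference of -2.33 ± 0.14 (adjusted p = 6.45e-08) and HSP26 of -1.51 ± 0.19 (adjusted p = 1.66e-05). Both Hsp90 genes lay close together. HSP82 had ratios of 4.98 and 5.55 at 20 min and 4.95 and 5.96 at 60 min, with a difference of -0.67 ± 0.14 (adjusted p = 7.83e-04). HSC82 had 6.67 and 6.19, then 4.50 and 5.37, with a difference of -0.60 ± 0.15 (adjusted p = 0.0035). The inducible Hsp70 copies SSA3 (-0.26 ± 0.13, adjusted p = 0.101) and SSA4 (-0.21 ± 0.17, adjusted p = 0.28) did not pass, with ratios of 5.65 to 8.51 and 6.35 to 8.44.

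Of the 10 genes, HSP12 was called for a change of the labeled to total ratio with time. Its ratios of normalized counts were 0.550 and 0.847 at 20 min and 3.87 and 4.44 at 60 min, without overlap, and relative to the median gene they went from 0.0591 and 0.0862 to 0.552 and 0.498. The log2 change was 2.84 ± 0.27 (7.17-fold, adjusted p = 5.39e-04). HSP12 was one of 3 genes called in the whole transcriptome (0.0494%), with YPR160W and YML128C. The value ran from 2.64 to 3.06 with each of the 8 libraries left out, and the adjusted p was at most 0.0114. On the S. pombe scale it was 2.64 with an adjusted p of 0.0956.

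HSP26 had a change of the same sign, with ratios of 2.17 and 1.83 at 20 min and 4.75 and 4.30 at 60 min, which do not overlap. Its change of 1.48 ± 0.38 did not pass (adjusted p = 0.344), and it lay at the 98.6th percentile of all genes. SSA2 had the lowest change of the 10, -0.86 ± 0.41 (adjusted p = 0.763). The other 7 genes had changes of -0.30 to 0.30.

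**Figure D3:**
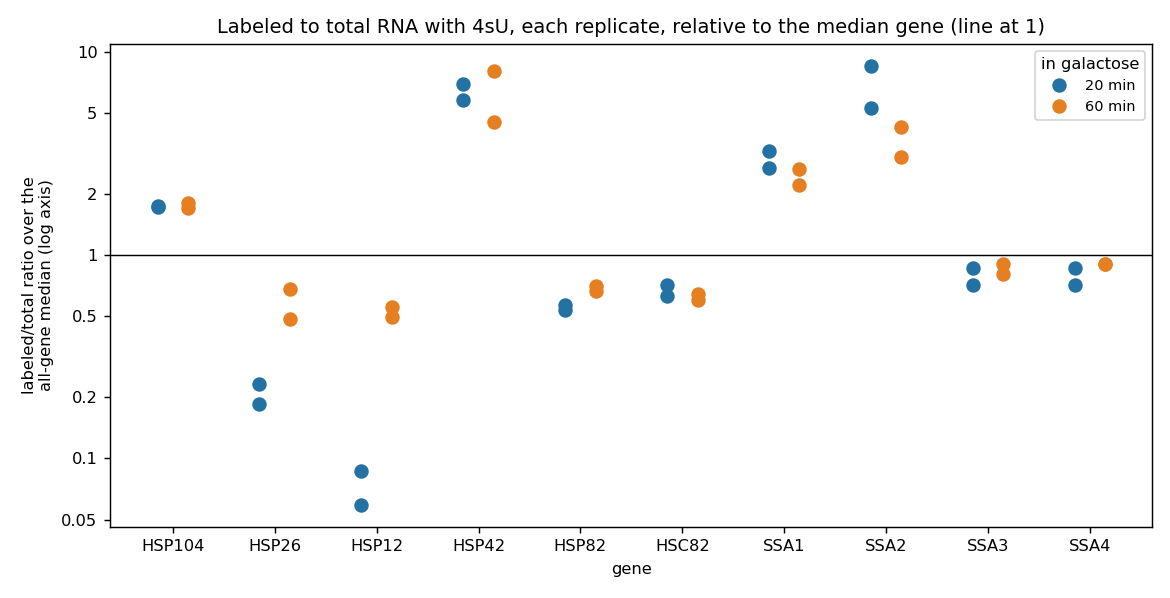
Ratio of labeled to total RNA with 4sU for each gene divided by the ratio of the median gene in the same replicate (log axis); points are the 2 replicates at 20 min (blue) and at 60 min (orange), and the line at 1 is the median gene. HSP12 moves from 0.0591 and 0.0862 to 0.552 and 0.498, and HSP26 lies at 0.233 and 0.186, then at 0.678 and 0.483.

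The labeled fraction without 4sU is the background of the pull-down. All 10 genes were higher with 4sU than without, as were 99.2% of all genes, and the median log2 difference was 5.70 against 5.53 over all genes. SSA2 had the largest difference of the 10 (6.73 ± 0.67). HSP12 (3.20 ± 0.63) and HSP26 (3.28 ± 0.59) had the smallest, at the 1.88th and 2.04th percentile. HSP12 without 4sU reached 97.2% of its normalized count with 4sU in replicate 1 at 20 min, 15.8% in replicate 2 at 20 min, and 3.40% and 1.33% at 60 min. HSP26 reached 36.6% and 13.5% at 20 min and 3.74% and 4.57% at 60 min. The median gene stood at 4.08%, 1.25%, 2.13% and 1.16% in the same libraries.

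The background of HSP12 and HSP26 was thus higher at 20 than at 60 min, the time at which their labeled to total ratios were the lower. Its part in the change of the ratio was not tested. In replicate 1 at 20 min, the library that stood apart, HSP82 had 10660 normalized counts without 4sU against 283 to 624 in the other 3 libraries. HSC82 had 4925 against 492 to 684. SSA2 had 421 there against 382 to 599, so that this library was not higher for every gene. Without that library the differences rose to 4.08 for HSP12 and 7.29 for HSP82. With TMM scaling, which sets the bulk of genes equal in labeled RNA with and without 4sU, HSP26 and HSP12 were lower with 4sU (-2.30 and -2.22).

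A further comparison concerned the 6 min of 4sU itself. In total RNA SSA4 was higher and HSP26 lower with 4sU than without, each in both replicates at both times. SSA4 rose by 1.06 ± 0.26 (2.09-fold, adjusted p = 0.00336), with ratios with to without 4sU of 1.30 and 1.81 at 20 min and 2.76 and 3.20 at 60 min. The 4 libraries at 60 min did not overlap, while those at 20 min did. HSP26 fell by 0.98 ± 0.28 (1.97-fold lower, adjusted p = 0.0159), with ratios of 0.374 and 0.582 at 20 min and 0.569 and 0.554 at 60 min. The groups did not overlap at either time.

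These 2 of 10 genes compare with 4.66% of all genes called for 4sU in total RNA. The median difference was 0.52 for the 10 genes and 0.23 over all genes. The next were HSP82 (0.76 ± 0.28) and SSA2 (0.74 ± 0.27), each at an adjusted p of 0.0881, HSC82 (0.69 ± 0.27, adjusted p = 0.136) and SSA1 (0.59 ± 0.27, adjusted p = 0.217). HSP42 (0.44), HSP104 (0.29), SSA3 (0.16) and HSP12 (0.06) were nearer to the median gene. All 4 ratios of HSP82, HSC82, SSA1 and SSA2 were above 1, from 1.19 to 2.73. The median gene had ratios of 1.23 and 1.338 at 20 min and 0.907 and 1.218 at 60 min. In replicate 2 at 20 min SSA1 (1.185) and SSA2 (1.192) lay below it, and in replicate 1 HSP82 (1.23) was level with it. At 60 min these 4 genes lay above it in both replicates. Libraries with the same replicate number came from 1 culture, and with the replicate number as a block 5 genes were called, namely SSA4 (1.09), HSP82 (0.77), SSA2 (0.77) and HSC82 (0.69) higher and HSP26 lower (-0.98). DESeq2 called 4. Without replicate 2 of the libraries lacking 4sU at 60 min none was called, and SSA4 then had an adjusted p of 0.137. HSP26 lost its call when any one of 5 libraries was left out, namely replicate 1 with 4sU at 20 min or any library at 60 min.

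The difference made by 4sU was compared between the times with an interaction term. None of the 10 genes was called by edgeR or DESeq2, and 0.198% of all genes were. One, HSP42, had an unadjusted p under 0.05. HSP42 changed by 1.61 ± 0.58 on the log2 scale (adjusted p = 0.921). It had 77.7 and 21.5 normalized counts at 20 min without 4sU, 38.5 and 35.9 at 20 min with it, 33.9 and 22.9 at 60 min without it and 76.6 and 55.6 at 60 min with it. The replicates without 4sU at 20 min lay farthest apart, and the value turned on them. It was 0.46 and not called without replicate 1 of them and 2.31 (adjusted p = 0.0159) without replicate 2, which was the 1 of 8 fits with a library left out that called HSP42. SSA4, whose ratios were higher at 60 than at 20 min, had an interaction of 1.00 ± 0.52.

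RNA that carries 4sU is held by the beads and so leaves the unlabeled fraction. The comparison of unlabeled RNA with and without 4sU was added after the values had been seen. It called 85.6% of all genes and 9 of the 10, all lower with 4sU on the S. pombe scale, while 4 of the 9 (HSC82, SSA1, SSA2 and HSP26) were higher relative to the bulk of genes under TMM scaling. HSP12 was the exception, at -0.44 ± 0.44 (adjusted p = 0.331) and the 98.0th percentile, with ratios with to without 4sU of 0.605 and 1.05 at 20 min and 0.665 and 0.616 at 60 min. With the replicate block it passed at -0.49 (adjusted p = 0.0264). The median gene had ratios of 0.184, 0.263, 0.117 and 0.0905.

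HSC82 (-1.03 ± 0.40), SSA1 (-1.14 ± 0.43), SSA2 (-1.36 ± 0.46) and HSP26 (-1.66 ± 0.51) fell and lay above the median gene, which was at -2.69. The call of HSC82 was lost in 4 of 8 fits with a library left out (without replicate 1 with 4sU at either time or replicate 2 without 4sU at either time, adjusted p up to 0.133). That of SSA1 was lost in 2 (without replicate 1 with 4sU or replicate 2 without 4sU at 60 min, adjusted p up to 0.0778). HSP42 (-2.75), SSA3 (-2.85), HSP82 (-2.97), HSP104 (-3.15) and SSA4 (-3.23) fell and lay below it. The Hsp90 pair, which lay close together in the labeled to total ratio, lay apart here, a difference that was not tested. HSC82 kept 33.5% and 64.0% of its level without 4sU at 20 min and 56.3% and 43.4% at 60 min. HSP82 kept 17.3% and 22.3% at 20 min and 8.89% and 7.39% at 60 min. SSA1 and SSA2 had labeled to total ratios above the median gene and also kept more than the median gene in unlabeled RNA, 29.1 to 61.0% over both genes and all replicates. The labeled to total ratio and the loss from unlabeled RNA thus ordered these genes differently. Under TMM scaling the values were 1.93 for HSP12, 1.35 for HSC82, 1.26 for SSA1, 1.08 for SSA2 and 0.71 for HSP26.

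**Figure D4:**
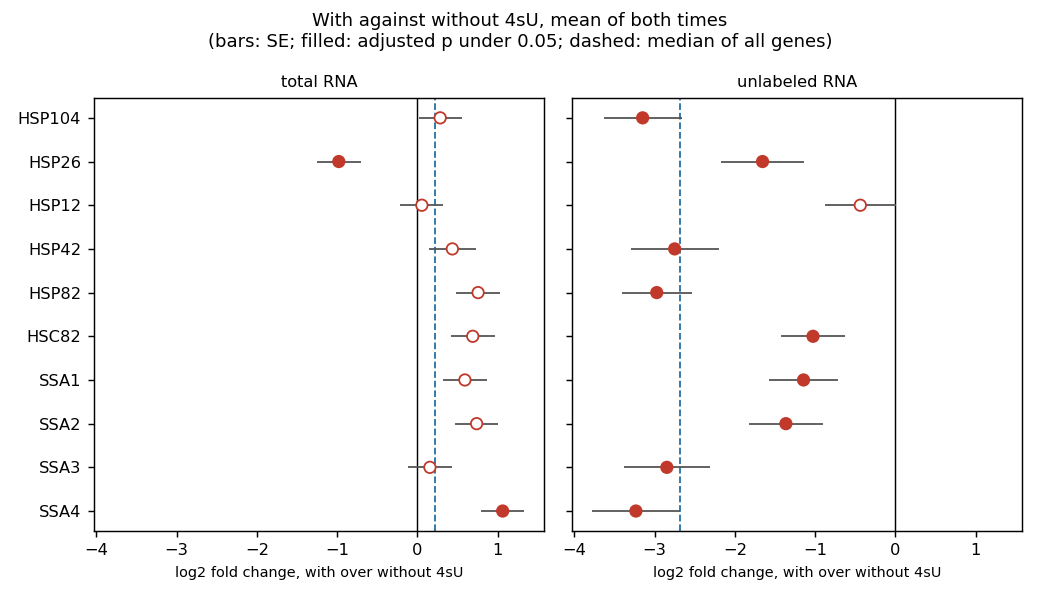
Log2 fold change with against without 4sU, as the mean of both times, in total and in unlabeled RNA (x axis, log2 scale); bars are SE, filled points have an adjusted p under 0.05, and the dashed line is the median over all 6069 genes. In total RNA SSA4 lies at 1.06 and HSP26 at -0.98, and in unlabeled RNA HSP12 lies at -0.44, to the right of the median gene at -2.69.

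Other genes of protein folding and stress were described from lists of systematic names put together from general knowledge of yeast, since the files do not pair names with genes. Among 16 co-chaperones and cofactors of Hsp70 and Hsp90, 5 were higher with 4sU in total RNA and none lower, led by YLR216C (1.28 ± 0.27, adjusted p = 1.4e-04) and YBR155W (1.02 ± 0.32, adjusted p = 0.0343), and their median was 0.61 against 0.23 over all genes. Of 9 chaperones of mitochondria and the endoplasmic reticulum 1 was higher, and of the 8 subunits of the cytosolic chaperonin and 4 ribosome-bound chaperones none was called. Of 15 general stress genes 3 were lower and none higher, led by YFR053C (-1.49) and YBR126C (-0.99 ± 0.27, adjusted p = 0.00985), with a median of -0.44. Of all genes 3.51% were called higher and 1.15% lower with 4sU in total RNA. The co-chaperones had a median on the side of SSA4 and the general stress genes one on the side of HSP26. These lists were chosen with earlier results of these data known, so this is a description.

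With time, 10 of the 16 co-chaperones, 7 of the 9 organelle chaperones, 2 of the 8 chaperonin subunits and 6 of the 15 general stress genes were called lower in unlabeled RNA, beside 30.5% of all genes, and the medians were -1.31, -1.38, -1.01 and -1.24 beside -1.16 over all genes. In unlabeled RNA none of the 4 ribosome-bound chaperones and none of the 3 regulators was called, with medians of 0.12 and -1.60. In total RNA 1 co-chaperone was lower without 4sU and none with it. In labeled RNA 1 general stress gene was called, YFR053C (1.80 ± 0.47, adjusted p = 0.0141). It was also higher at 60 min in total RNA with 4sU (1.82) and without (1.85), where HSP12 and HSP26 had negative changes. In labeled against total RNA all 3 regulators were higher, with a median of 1.60, and 8 of 16 co-chaperones were higher and 3 lower, where 33.0% of all genes were higher and 27.7% lower. For the change of the ratio with time, none of the 55 genes of these lists was called, where 3 of all genes were. The medians were 0.61 for the general stress genes and -0.61 to 0.17 for the other lists, against 0.02 over all genes. In labeled RNA the general stress genes had a median change with time of 0.53, against -0.43 over all genes. Under TMM scaling 7 of the 15 were called higher there, beside 2.09% of all genes.

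The 9 members whose mean normalized count in total RNA was 50 or more had a common profile, taken as the mean of their centred log2 values over the 8 total RNA libraries. Of 3543 other genes with that mean, YBR035C and YBL102W were nearest to it, with Pearson's r of 0.979 and 0.976. The 8 libraries share 4 groups and the S. pombe scale, so these values are a description. For none of the 9 genes was the most similar gene in the transcriptome another of the 9, and the closest such pair was SSA4 and HSP82, where HSP82 ranked the 10th most similar gene to SSA4.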

How the data were processed

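RNA of 24 libraries (3 fractions, with or without 4sU, 20 or 60 min in galactose, 2 biological replicates) was analysed. The authors aligned paired reads with HISAT2 2.0.4 to the R64 build, counted them per gene with featureCounts by strand with multi-mapping reads included, and deposited raw counts. They also deposited a signal table, in which each count is divided by the library's S. pombe reads over 2000000.

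From these, quasi-likelihood tests were run with edgeR 4.0.16 in R 4.3.3 on the raw counts of the 6069 of 7127 genes that were counted in 50% or more of the libraries. S. pombe totals served as library sizes within a fraction and TMM between labeled and total RNA. The tests of time with 4sU and of labeled against total RNA used the 12 libraries with 4sU, and the other tests the 8 libraries of one fraction. P-values were adjusted by Benjamini-Hochberg over all genes tested, with a threshold of 0.05. The code was tested on simulated data. DESeq2 1.42.0, other scaling, other count filters, the replicate block, fewer libraries in the fit and each library left out were alternatives. Groups came from the sample labels.

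Per the growth protocol, libraries with 1 replicate number came from 1 culture, so the numbers pair the libraries. Differences between replicates correlated across genes at -0.13 to 0.299 over 12 pairs of groups, and at more than 0.1 in 10 of them. Total counts of 1.07 M to 38.4 M leave little counting error for most genes, and the 2 replicates limit the precision. The members and all gene lists were chosen with earlier results of these data known. All 10 members are named, with at most 3 genes per direction and comparison from the other lists and the 2 genes nearest to the members' common profile. The names YPR160W and YML128C fall outside that rule and were chosen after their values were seen. One of the 3 galactose genes listed, gene lengths and sequences were not used here.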

Additional observations from a re-analysis of the deposited data

Results flagged for a closer look

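HSP12 had changes of opposite sign in labeled RNA and in the other fractions. Between 20 and 60 min its mean log2 change over both replicates was 0.596 in labeled RNA, -2.003 in total RNA and -2.881 in unlabeled RNA, all with 4sU. Both replicates were higher at 60 min in labeled RNA (0.327 and 0.865) and both were lower in total RNA (-2.483 and -1.522) and in unlabeled RNA (-2.675 and -3.087). The change in labeled RNA did not pass the test of time in that fraction (0.63 ± 0.47, adjusted p = 0.706). The difference between labeled and total RNA was tested as the change of the labeled to total ratio (2.84, adjusted p = 5.39e-04). The difference between labeled and unlabeled RNA was not tested. Beside it stands the background of the pull-down, 97.2% and 15.8% of the labeled level at 20 min and 3.40% and 1.33% at 60 min, whose part in the result was not tested.

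SSA2 had opposite signs in total and unlabeled RNA with 4sU. Its mean log2 change from 20 to 60 min was 0.962 in total RNA (0.338 and 1.585) and -0.116 in unlabeled RNA (-0.154 and -0.078). This difference was not tested, and neither change passed the test of time in its own fraction.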

How the results depend on the processing

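Every comparison was repeated under the alternatives. Of 1170 values for single genes, 1042 kept their direction and side of the threshold, 40 lost and 26 gained a call, and 49 that were called in neither fit changed sign. In 13 the sign changed with the scale and the value was called under at least one of the scales, and the cause was not otherwise tested. Of these, HSP12 for 4sU in unlabeled RNA and SSA3 and SSA4 for labeled against total RNA were called only under the alternative. With TMM in place of the S. pombe scale these were HSP26 (-2.30) and HSP12 (-2.22) for 4sU in labeled RNA, and HSP26 (0.71), HSP12 (1.93), HSC82 (1.35), SSA1 (1.26) and SSA2 (1.08) for 4sU in unlabeled RNA. With the S. pombe scale in place of TMM they were HSP26 (1.58), HSP12 (0.75), HSP82 (2.43), HSC82 (2.51), SSA3 (2.84) and SSA4 (2.86) for labeled against total RNA.

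TMM scaling moved the number of the 10 genes called from 0 to 1 for time in labeled RNA, from 1 to 3 for time in total RNA with 4sU and from 10 to 2 for 4sU in labeled RNA, and the S. pombe scale moved the change of the labeled to total ratio from 1 to 0. Fits on the 4 libraries of the fraction alone moved time in total RNA with 4sU from 1 to 2 and time in unlabeled RNA from 5 to 2. For 4sU in total RNA DESeq2 called 4 and the replicate block 5 in place of 2. The block also called HSP82 lower with time in total RNA without 4sU (adjusted p = 0.00677) and HSP12 lower with 4sU in unlabeled RNA (adjusted p = 0.0264), and it changed no call of the 10 genes beyond these.

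With each library left out, the count ran from 0 to 1 for time in total RNA with 4sU, 2 to 8 for time in unlabeled RNA, 1 to 5 for time in total RNA without 4sU, 0 to 5 for 4sU in total RNA, 0 to 1 for the interaction and 7 to 9 for 4sU in unlabeled RNA. A lone library was then assumed to vary like the other groups. Over all genes, the counts called moved from 82 to 253 (time in labeled RNA), 74 to 441 (time in total RNA with 4sU), 1852 to 470 (time in unlabeled RNA), 150 to 572 (time in total RNA without 4sU), 283 to 489 (4sU in total RNA), 12 to 7 (interaction), 6020 to 304 (4sU in labeled RNA) and 5195 to 3435 (4sU in unlabeled RNA) with TMM. They moved from 3689 to 5980 (labeled against total RNA) with the S. pombe scale, and from 283 to 497 (4sU in total RNA) with the block. For the change of the ratio 3 genes were called, against 2 with the S. pombe scale, 80 by DESeq2 and 8 with the block, and for the interaction DESeq2 called 1. HSP42 had as few as 4 counts, SSA4 5 and SSA3 16 in an unlabeled library, so changes of these genes there are the least precise.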
